A study of Mus musculus with 13 samples.

Results

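The MHC class I presentation genes described here are the heavy chain genes H2-K1, H2-D1, H2-Q4 and H2-T23, the light chain gene B2m, the peptide transporter genes Tap1 and Tap2, the tapasin gene Tapbp, the immunoproteasome gene Psmb8 and the regulator gene Nlrc5. They were chosen by gene name and not by a cut on their values, although earlier results of these data were known. They are 10 of the 54532 genes counted in each tumour. RNA of 13 mouse small cell lung cancer tumours was sequenced. All of the mice were congenic LSL-Cas9 BL6J animals, in which Cas9 is made once a stop cassette has been removed, and all tumours carried RPP guides, which target Rb1, Trp53 and Rbl2. The groups differed in 1 more guide, a control guide in 6 tumours (sgControl RPP) or a guide against Kdm6a, the gene of a histone H3 lysine demethylase, in 7 tumours (sgKdm6a RPP). No tumour was treated, and whole tumours were frozen at necropsy, so that tumour cells and the other cells of the tissue were read together. The labels give no age and do not say whether tumours were of separate animals. In the sgKdm6a group, 6 tumours form 3 pairs with a common title number and may thus come from 1 animal a pair, so p-values given here describe the spread over tumours whose independence is not known.

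MHC class I molecules show peptides made inside a cell to CD8+ T cells. The immunoproteasome cuts proteins into peptides, the TAP transporter carries them into the endoplasmic reticulum, tapasin holds an empty heavy chain and its light chain beside TAP until a peptide is bound, and NLRC5 with partner factors switches the genes on. Interferon raises nearly all of these genes, immune cells express them strongly, and neuroendocrine small cell lung cancer is known for low levels of them.

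Promoters of class I genes carry shared elements through which NLRC5, NF-kappaB and interferon regulatory factors can act on them together. Of the promoters searched, 3 are printed. They are the ones whose window lay wholly or mostly outside annotated untranslated regions. Sequences are those of RefSeq on GRCm38.p6, in which 8 of the 10 genes were matched (all but Tap2 and Nlrc5), and the 250 bases before the start site were searched on both strands. Capitals mark matches to the kappaB element GGGGATTCC, the interferon-stimulated response element core AANNGAAAC, the X2 box TGACG and the Y box CCAAT, and no match overlaps another. Each is read 5′ to 3′ along the gene, over chr17:34000348-34000468 on the minus strand for H2-K1, chr17:35379453-35379576 on the plus strand for H2-Q4 and chr2:122147599-122147648 on the plus strand for B2m.
H2-K1: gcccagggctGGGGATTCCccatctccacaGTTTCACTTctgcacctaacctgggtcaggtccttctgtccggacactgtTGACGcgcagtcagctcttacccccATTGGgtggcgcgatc
H2-Q4: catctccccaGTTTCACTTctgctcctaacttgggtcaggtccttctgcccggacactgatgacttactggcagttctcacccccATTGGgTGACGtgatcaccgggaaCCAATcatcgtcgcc
B2m: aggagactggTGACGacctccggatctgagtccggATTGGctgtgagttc
The H2-K1 and H2-D1 promoters held all 4 kinds of match. The H2-D1 window lies inside an exon that the annotation gives to H2-D1 and is not printed. H2-Q4 held all but the kappaB letters, and its window lies in an exon of Gm11131, a gene on the opposite strand. B2m and Tap1 held the X2 and Y letters, H2-T23 and Tapbp the Y letters, and Psmb8 no match in these 250 bases. Among 32851 RefSeq promoter windows of the same length, 0.213% held the kappaB letters, 4.95% the response element core, 17.8% the X2 box and 33.8% the Y box, and 5 windows (0.0152%) held all 4. The motifs were chosen after the data were seen, so these shares are background and not a test of the class I promoters. A match describes the letters and does not show that a factor binds.

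The table held 16835726 to 22910187 counts per tumour, and 3 counts, taken as the detection limit, corresponded to 0.131 to 0.178 CPM, a count scaled to the size of its library. That limit covers counting error only. Neuroendocrine markers such as Chga had sums of 2962 to 7248 CPM (sgControl) or 3302 to 15907 CPM (sgKdm6a), so the markers that define this tumour type were present in all 13. By edgeR, 2 of these 10 markers had an unadjusted p under 0.05, both being higher with sgKdm6a, where 3.18% of all genes tested were higher at that p. Kdm6a mRNA ranged from 51.7 to 112 CPM with the control guide and from 42.7 to 91.3 CPM with the Kdm6a guide, a log2 difference of -0.14 (SE 0.22, adjusted p = 0.887 by edgeR). Small insertions and deletions left by Cas9 need not lower an mRNA, so this does not check the edit. A pair of tumours stood apart in the genes described here, sgControl replicate 6 with high and sgKdm6a replicate 3 with low values, and results are given with and without them.

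Transcripts of the light chain and the classical heavy chains were the most abundant of the 10 and Nlrc5 the least. On the scale of FPKM, which divides counts by gene length, the median over the 13 tumours was 263 for B2m, 248 for H2-D1, 156 for H2-K1, 45.2 for H2-Q4, 23.9 for Tapbp, 26.7 for Psmb8, 18.5 for H2-T23, 9.74 for Tap1, 9.94 for Tap2 and 2.32 for Nlrc5, in the order of their mean log2 FPKM. Within a tumour, H2-D1 was above H2-K1 in 13 of 13, H2-K1 above H2-Q4 in 12, H2-T23 above Tap1 in 13 and Tap2 above Nlrc5 in 13. Only at these 4 steps of the order did the mean difference between neighbours exceed its SD over the tumours. B2m and H2-D1, H2-Q4 and Tapbp, Tapbp, Psmb8 and H2-T23, and Tap1 and Tap2 did not differ beyond their spread.

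The classical heavy chains H2-K1 and H2-D1, which present peptides to CD8+ T cells, were the most variable in absolute terms. H2-K1 (ENSMUSG00000061232, chromosome 17, 33996017 to 34000333 in mm10) was at 422, 608 and 2685 CPM in the lowest, median and highest sgControl tumour and at 38.3, 357 and 1444 CPM in the sgKdm6a tumours. The groups overlapped, with 4 of 7 sgKdm6a tumours below every sgControl tumour, of which replicates 4 and 5 share a title number. The highest tumour held 70.1 times the H2-K1 of the lowest. The H2-K1 log2 fold change of sgKdm6a against sgControl was -0.81 (SE 0.67, adjusted p = 0.733 by edgeR), and -0.15 (SE 0.62) without sgControl replicate 6. H2-D1 (ENSMUSG00000073411, chromosome 17, 35262730 to 35267499) was at 523, 829 and 3105 CPM in sgControl and at 121, 682 and 1890 CPM in sgKdm6a tumours. Again both groups overlapped and 3 sgKdm6a tumours lay below every sgControl tumour. The H2-D1 log2 fold change was -0.57 (SE 0.56, adjusted p = 0.788 by edgeR), and -0.0049 (SE 0.51) without the same tumour. In these bulk samples, fewer cells of a type and less RNA per cell cannot be told apart.

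H2-T23 and H2-Q4 are non-classical heavy chain genes. H2-T23, which encodes Qa-1, a ligand of NKG2 receptors on natural killer cells (ENSMUSG00000067212, chromosome 17, 36029773 to 36032855), was at 49.6, 67.2 and 280 CPM in sgControl and at 16.4, 46.2 and 114 CPM in sgKdm6a tumours. Its log2 fold change was -0.68 (SE 0.50, adjusted p = 0.692 by edgeR), and -0.043 (SE 0.40) without sgControl replicate 6. Below every sgControl tumour lay 4 sgKdm6a tumours, of which replicates 4 and 5 share a title number. H2-Q4, a gene of the Q region (ENSMUSG00000035929, chromosome 17, 35379617 to 35385290), varied least, by 5.69 times between its lowest and highest tumour. It was at 45.1, 129 and 230 CPM in sgControl and at 49.9, 61.4 and 257 CPM in sgKdm6a tumours. No sgKdm6a tumour lay below every sgControl tumour, and the log2 fold change was -0.25 (SE 0.44, adjusted p = 0.900 by edgeR), and -0.0036 (SE 0.45) without sgControl replicate 6. Of the 150-base stretches of the longest H2-Q4 transcript, 8.39% also occur in Gm11131, and since the libraries did not keep the strand, reads of both cannot be told apart there. The corresponding share was 8.73% for Tapbp, with Gm19412, 2.25% for Tap1, with Psmb9, 1.79% for H2-D1, with H2-Q1, 0.831% for H2-T23, 0.668% for Tap2, and 0 for H2-K1, B2m, Nlrc5 and Psmb8.

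B2m, whose product beta-2 microglobulin is the light chain of every class I molecule (ENSMUSG00000060802, chromosome 2, 122147686 to 122153083), had the largest difference of the 10. It was at 205, 397 and 1740 CPM in sgControl and at 57.1, 166 and 700 CPM in sgKdm6a tumours. The groups overlapped, although 5 of 7 sgKdm6a tumours lay below every sgControl tumour, replicate 1 by 202 against 205 CPM. Of these 5, replicates 1 and 2 share a title number, as do replicates 4 and 5. The B2m log2 fold change was -1.31 (SE 0.58, adjusted p = 0.472 by edgeR), and it was -0.61 (SE 0.48) without sgControl replicate 6.

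Tap1 and Tap2, the subunits of the peptide transporter, lay close together on the scale of FPKM. Their FPKM ratio was 0.742 to 1.35 over the 13 tumours. Tap1 (ENSMUSG00000037321, chromosome 17, 34187553 to 34197225) was at 34.8, 61.8 and 150 CPM in sgControl and at 4.03, 55.7 and 158 CPM in sgKdm6a tumours, a log2 fold change of -0.19 (SE 0.58, adjusted p = 0.949 by edgeR). Tap2 (ENSMUSG00000024339, chromosome 17, 34203527 to 34216321) was at 29.0, 40.5 and 82.5 CPM in sgControl and at 3.15, 38.2 and 83.3 CPM in sgKdm6a tumours, a log2 fold change of -0.21 (SE 0.51, adjusted p = 0.932 by edgeR). Without sgControl replicate 6 these values were 0.16 for Tap1 and 0.037 for Tap2, and without sgKdm6a replicate 3 they were 0.018 and 0.00092. For both genes, the groups covered nearly the same range once sgKdm6a replicate 3, the lowest tumour, is set aside. Tap1 overlaps Psmb9 on the opposite strand, which had 9419 counts over all tumours against 16723 of Tap1, so part of either may belong to the other. Tapbp, which encodes tapasin (ENSMUSG00000024308, chromosome 17, 33915899 to 33929288), was at 59.8, 94.6 and 435 CPM in sgControl and at 29.7, 62.4 and 111 CPM in sgKdm6a tumours. The sgControl range of Tapbp rests on replicate 6, as the next highest of all 13 tumours had 111 CPM. The Tapbp log2 fold change was -0.98 (SE 0.46, adjusted p = 0.494 by edgeR), or -0.24 (SE 0.29) without that tumour. Tapbp shares the deposited span of Zbtb22 on the same strand, with 10745 counts of Zbtb22 against 25605 of Tapbp.

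Psmb8, the immunoproteasome subunit also called LMP7 (ENSMUSG00000024338, chromosome 17, 34197721 to 34201454), was at 42.6, 77.2 and 153 CPM in sgControl and at 6.98, 84.2 and 142 CPM in sgKdm6a tumours. Its median was slightly higher in sgKdm6a tumours while its log2 fold change was -0.23 (SE 0.50, adjusted p = 0.924 by edgeR), 0.022 without sgControl replicate 6 and -0.022 without sgKdm6a replicate 3. Nlrc5, the transactivator of class I genes (ENSMUSG00000074151, chromosome 8, 94434356 to 94527272), was the least abundant. It was at 14.7, 35.3 and 72.6 CPM in sgControl and at 1.97, 17.8 and 49.1 CPM in sgKdm6a tumours, a log2 fold change of -0.83 (SE 0.55, adjusted p = 0.652 by edgeR), and of -0.50 (SE 0.55) without sgControl replicate 6. The plot of levels by tumour shows all 10 genes with Ptprc.

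**Figure D1:**
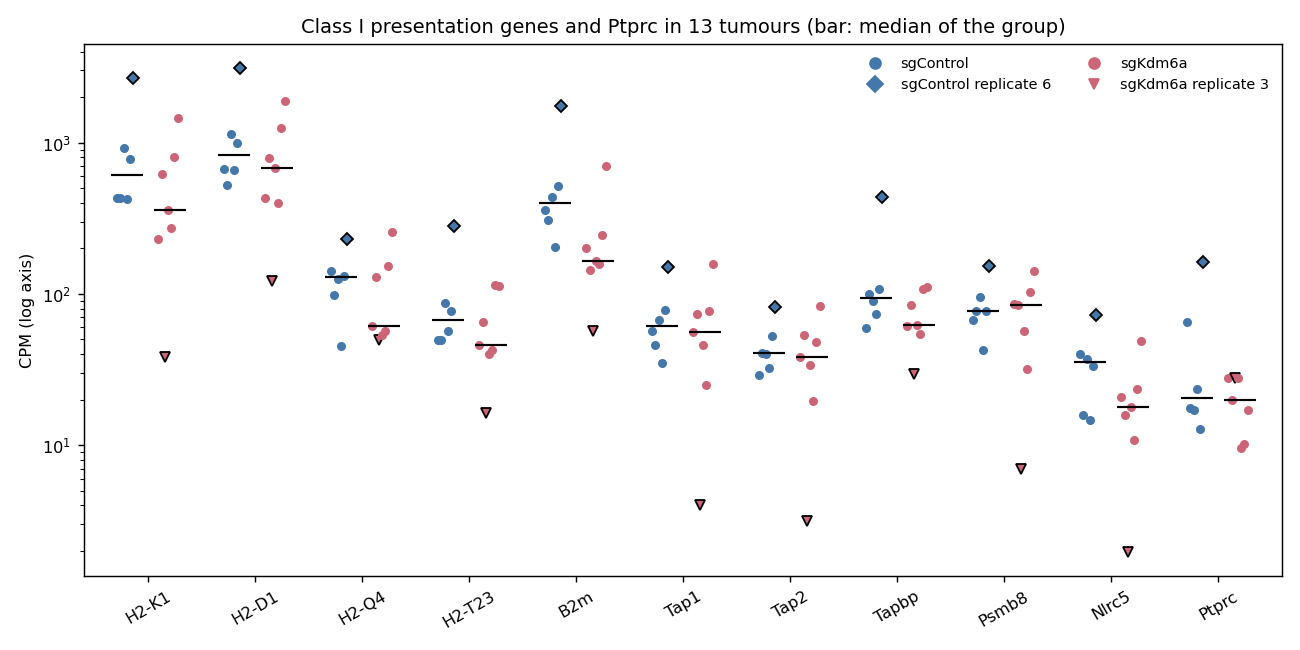
CPM (log axis) of each class I gene and of Ptprc in every tumour, with sgControl in blue, sgKdm6a in red and a bar at the group median. The groups overlap for every gene; sgControl replicate 6 (diamond) is the highest tumour in 7 of the 10 class I genes and sgKdm6a replicate 3 (triangle) the lowest in 9.

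Across the whole transcriptome, 0 of 16575 genes tested (0%) passed an edgeR adjusted p of 0.05, with a smallest adjusted p of 0.419. At an unadjusted edgeR p under 0.05, 1156 genes (6.97%) were lower and 527 higher in sgKdm6a tumours. DESeq2 called 68 genes, none of the 10 among them. All 10 class I genes were tested and all 10 had a negative log2 fold change, from -1.31 to -0.19 with a median of -0.63, against a median of -0.0017 over all genes tested. Only B2m was lower at an unadjusted edgeR p under 0.05, 1 of 10 beside the 6.97% of all genes. Both genotypes overlapped in each of the 10 genes, where 47 of all genes tested (0.284%) did not overlap.

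The common direction rested on few tumours. Without sgControl replicate 6, the median log2 fold change of the 10 was -0.024, with 7 negative and 0 lower at an unadjusted edgeR p under 0.05, where 2.79% of all genes were lower. Without sgKdm6a replicate 3 the median was -0.45, with 8 negative. Without both of them, a choice made after their values were seen, it was 0.12, with 3 negative. In the titles, the numbers fall into a lower series (3 sgControl and 2 sgKdm6a tumours, which share 1 number) and a higher series (3 and 5 tumours) that holds both of these tumours. Within the lower series the median was -0.27 with 7 of 10 negative, and within the higher series it was -0.94 with 10 negative. A term for the mean of 4 Y-linked genes was also fitted. Their summed CPM was 0 to 210 in sgControl with a median of 165, and 0 to 346 in sgKdm6a tumours with a median of 0.050. The highest sum of all tumours, 346, was that of sgKdm6a replicate 3, the low class I tumour. With that term the median log2 fold change of the 10 was -1.61. At an unadjusted edgeR p under 0.05, 0 of the 10 were lower, where 2.52% of all genes were. The estimates were less precise, with an SE of 1.80 for H2-K1 and 0.87 for Tapbp, against 0.67 and 0.46 without the term. None of the 4 Y-linked genes was lower or higher at an unadjusted p under 0.05 in the edgeR fit without the term. Their median log2 fold change there was -1.53, with SEs of 1.82 to 1.90, so that fit cannot show whether the groups were balanced in them.

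**Figure D2:**
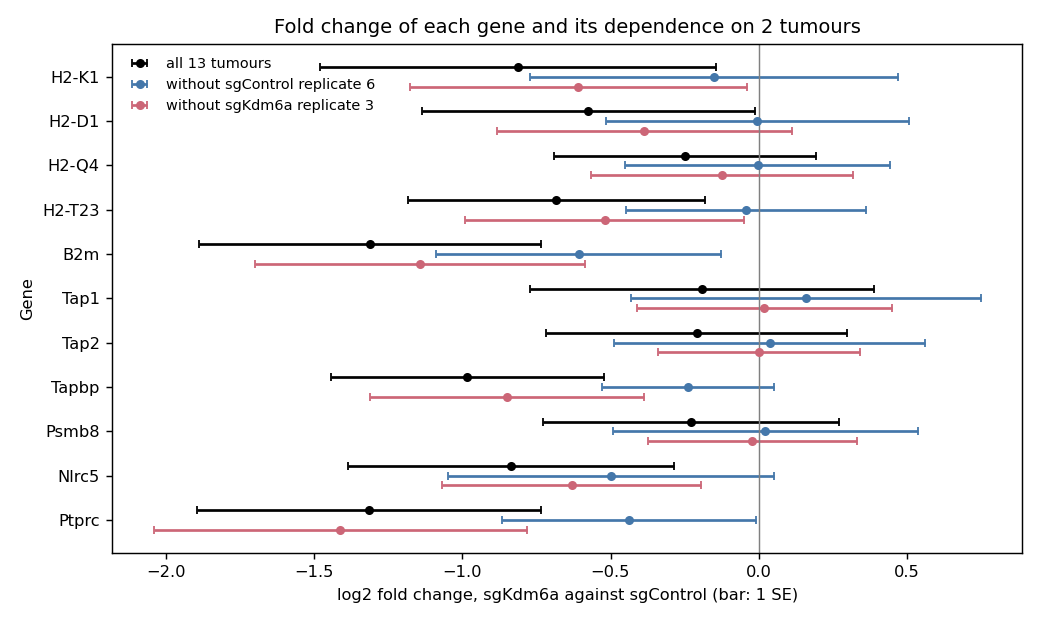
Log2 fold change of each gene, sgKdm6a against sgControl, with 1 SE from edgeR, over all 13 tumours (black), without sgControl replicate 6 (blue) and without sgKdm6a replicate 3 (red). The values of H2-K1, H2-D1, H2-T23, B2m, Tapbp and Ptprc move toward 0 without sgControl replicate 6, while those of Tap1, Tap2 and Psmb8 lie near 0 without either tumour.

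The 10 genes varied more between tumours of 1 genotype than a typical gene. The median SD of their log2 CPM was 0.90 in sgControl (n = 6) and 1.35 in sgKdm6a tumours (n = 7), against 0.57 and 0.52 over all genes tested. In sgKdm6a tumours 12.6% of genes had an SD above that median, and 25.0% without replicate 3. The sgControl shares were 29.4%, and 48.1% without replicate 6, so that without this tumour the spread in sgControl was that of a typical gene.

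In the tumours at either end, the genes deviated together. Each gene's log2 CPM was set against its median over the 13 tumours, and the median of these deviations over the 10 genes was 2.0 in sgControl replicate 6, 1.14 in sgKdm6a replicate 7, -0.85 in sgKdm6a replicate 5 and -2.91 in sgKdm6a replicate 3. In the other 9 tumours it lay between -0.36 and 0.46. Replicate 6 of sgControl was the highest of all tumours for H2-K1, H2-D1, H2-T23, B2m, Tapbp, Psmb8 and Nlrc5, at 2.0 to 6.20 times the median of the other sgControl tumours in these genes. It was the highest tumour for 22% of all genes tested. Replicate 7 of sgKdm6a was the highest for H2-Q4, Tap1 and Tap2 and above the median in all 10.

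The low tumour, sgKdm6a replicate 3, was the lowest of 13 in 9 of the 10 genes, where it was the lowest for 15.3% of all genes tested. The exception was H2-Q4, which was lowest in sgControl replicate 4. Relative to the median of the other sgKdm6a tumours, it held 0.062 times the Tap1, 0.073 times the Tap2, 0.078 times the H2-K1, 0.082 times the Psmb8 and 0.10 times the Nlrc5, but 0.31 times the B2m, 0.41 times the Tapbp and 0.52 times the H2-Q4. Counts remained well above the limit of 3, at 38 for Nlrc5, 61 for Tap2, 78 for Tap1, 741 for H2-K1 and 1104 for B2m. Tumours that share a title number differed as well, and the second of each pair differed from the first by a median of 0.47, -0.55 and 0.77 log2 CPM over the 10 genes.

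**Figure D3:**
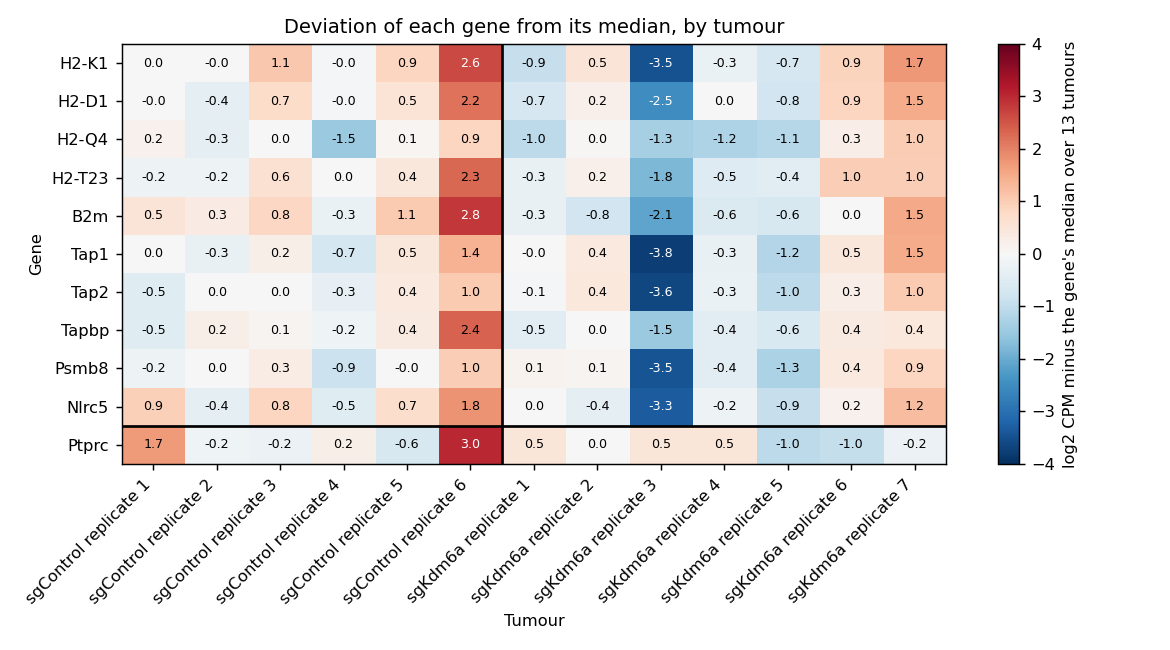
Deviation of each gene's log2 CPM from its median over the 13 tumours, with tumours in columns, genes in rows and Ptprc below the line. The columns of sgControl replicate 6 (median deviation 2.0) and sgKdm6a replicate 3 (-2.91) are of 1 colour over the class I genes, while Ptprc is high in the first and slightly above its median in the second.

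Ptprc, which encodes the leukocyte surface phosphatase CD45, was used as a measure of immune content (ENSMUSG00000026395, chromosome 1, 138062861 to 138175708). It was at 12.8, 20.5 and 163 CPM in sgControl and at 9.64, 19.9 and 28.0 CPM in sgKdm6a tumours, a log2 fold change of -1.31 (SE 0.58, adjusted p = 0.473 by edgeR), or -0.44 (SE 0.43) without sgControl replicate 6. That tumour held 9.30 times the Ptprc of the median of the other sgControl tumours. In sgKdm6a replicate 3, Ptprc was at 28.0 CPM, the highest of the sgKdm6a tumours and 1.52 times the median of the others, so its low class I levels were not accompanied by low Ptprc. The sum of 8 pan-leukocyte markers, of which Ptprc is 1, did not follow, and at 153 CPM lay at the lower end of the sgKdm6a range of 153 to 235.7 CPM.

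Relative to Ptprc, no class I gene passed the test between genotypes. The log2 ratio of each gene to Ptprc was compared by a two-sided exact permutation test over all 1716 splits of the tumours, in which p cannot go below 5.83e-04. The difference in log2 ratio, sgKdm6a minus sgControl, ran from -0.53 for B2m to 0.40 for H2-Q4, with a median of 0.11 and 7 of 10 positive, against a median of 0.75 over all genes tested. The sign of that median over the 10 genes turned with single tumours. Leaving out sgControl replicate 1 gave -0.22, leaving out sgKdm6a replicate 6 gave -0.19 and leaving out replicate 7 of that group gave -0.14, each with 1 of 10 positive. It was -0.073 with 2 positive without sgControl replicate 6, 0.54 with 9 positive without sgKdm6a replicate 3 and 0.38 with 9 positive without both. Averaged by title number it was -0.29 with 1 positive. None of the 10 was lower or higher at an unadjusted exact p under 0.05, where 0.338% of all genes were lower and 3.81% higher, and no gene passed the adjustment (smallest adjusted exact permutation p = 0.585). In sgKdm6a replicate 3 the ratio was the lowest of all tumours in 8 of the 10 genes, the exceptions being H2-Q4, lowest in sgControl replicate 6, and Tapbp, lowest in sgControl replicate 1. The H2-K1 log2 ratio was 0.45 in that tumour against 2.73 to 6.40 in the others. The median over the 10 genes was -0.34 in sgKdm6a replicate 3, -0.038 in sgControl replicate 1, 0.63 in sgControl replicate 6 and 0.99 to 3.42 in the other 10 tumours. With Ptprc as a term in edgeR, the median log2 fold change of the 10 was -0.21 with 9 negative, against 0.0086 over all genes. In that fit 0 of the 10 were lower at an unadjusted p under 0.05, where 2.98% of all genes were.

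The relation with Ptprc across tumours rested on sgControl replicate 6. Taken over 10 title numbers, with the mean over tumours of 1 number, Pearson's r of log2 CPM with Ptprc was 0.086 (Tap2) to 0.48 (Tapbp) and positive for all 10 genes. None passed (permutation adjusted p of 0.440 to 0.899 over all genes), where 50 of 16574 genes (0.302%) did and 10.1% were positive at an unadjusted permutation p under 0.05. Spearman's rho was -0.22 to 0.21, positive for H2-Q4 and Nlrc5 only, with permutation adjusted p of 0.888 to 0.989. Without the numbers farthest from the Ptprc median, those of sgControl replicates 1 and 6, r was -0.84 to -0.69 in the 8 that were left. These 8 include sgKdm6a replicate 3, and no p was computed for them. With sgControl replicate 6 and sgKdm6a replicate 3 left out instead, r was -0.68 to 0.17, with a median of -0.32 over the 10 genes. Without sgControl replicate 6 alone all 10 were negative, at -0.56 to -0.11, whereas without sgControl replicate 1 alone all 10 were positive, at 0.12 to 0.63. Within the 6 sgControl tumours, replicate 6 included, r was 0.41 to 0.68, with exact permutation p of 0.142 to 0.421 before adjustment. Spearman's rho in the same tumours was -0.086 (Tap2 and Tapbp) to 0.49 (Nlrc5), with a smallest exact permutation p of 0.356 before adjustment.

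**Figure D4:**
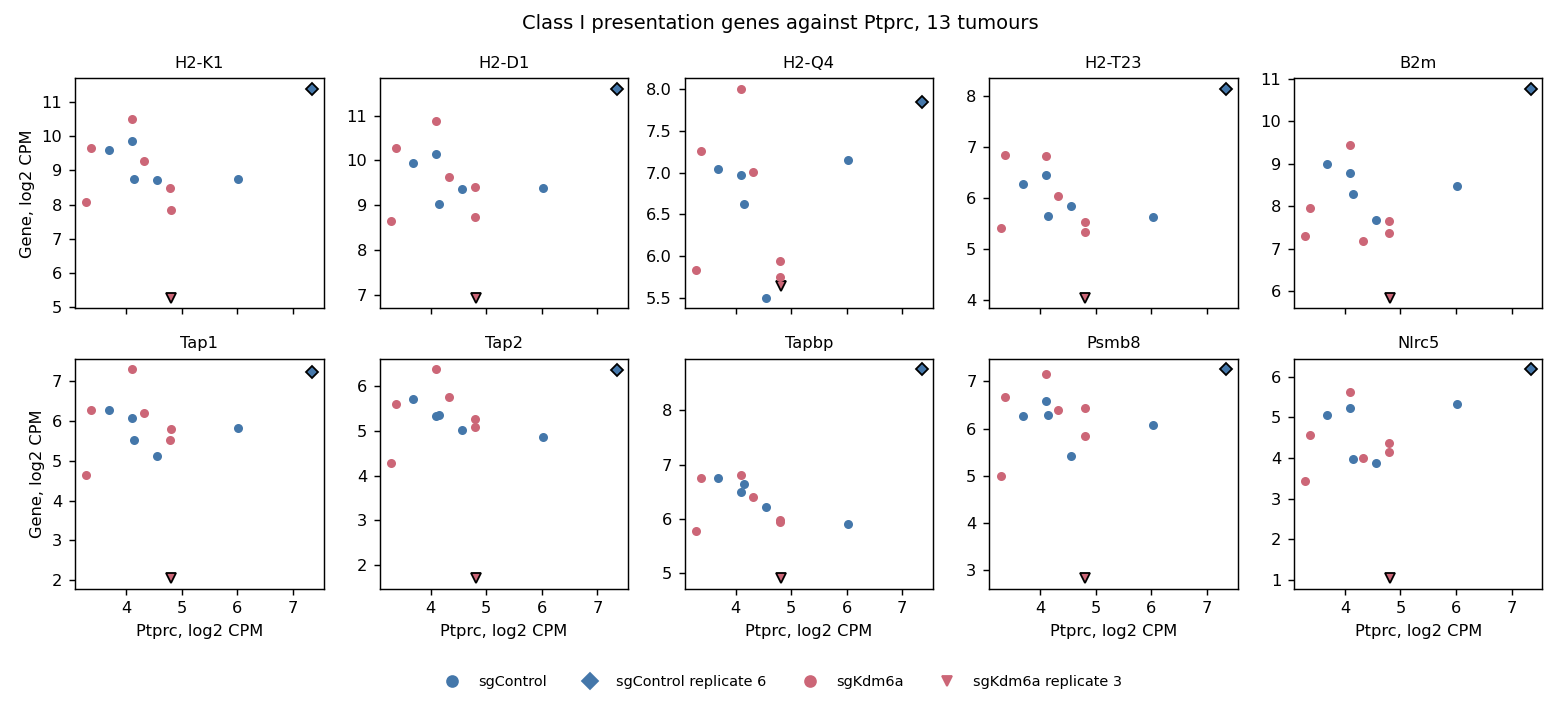
Log2 CPM of each class I gene against log2 CPM of Ptprc in the 13 tumours, 1 panel a gene. The diamond at the upper right of each panel is sgControl replicate 6; without it r is negative for all 10 genes, and the triangle of sgKdm6a replicate 3 lies at or near the bottom at a Ptprc level within the range of the others.

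Ratios within the pathway were compared per tumour on FPKM, by two-sided exact permutation tests adjusted over 5 ratios. Each immunoproteasome subunit was set against the constitutive subunit it replaces. The Psmb8 to Psmb5 ratio was 0.244, 0.357 and 0.425 in the lowest, median and highest sgControl tumour and 0.0304, 0.292 and 0.491 in sgKdm6a tumours (log2 difference -0.79, exact p = 0.214, adjusted 0.356), and the difference was -0.34 without sgKdm6a replicate 3. The Psmb9 to Psmb6 ratio was 0.0467, 0.111 and 0.225 in sgControl and 0.00899, 0.0710 and 0.343 in sgKdm6a tumours (log2 difference -0.51, exact p = 0.559, adjusted 0.699), and the difference was 0.020 without sgKdm6a replicate 3. Psmb9 encodes LMP2 and Psmb10 MECL-1, the other inducible subunits.

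The Psmb10 to Psmb7 ratio was 0.216, 0.363 and 2.07 in sgControl and 0.0939, 0.250 and 0.361 in sgKdm6a tumours. Its log2 difference was -1.04 (exact p = 0.0449, adjusted 0.224), and -0.60 without sgControl replicate 6, the tumour at 2.07. With 1 tumour left out, the exact p was 0.05 or above in 10 of 13 cases. In all 3 immunoproteasome ratios sgKdm6a replicate 3 was the lowest tumour.

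The Tap1 to Tap2 ratio stayed between 0.742 and 1.35 in all 13 tumours, 0.883 in sgKdm6a replicate 3 included, while the levels of both genes varied over 39.2 and 26.4 times (log2 difference -0.026, exact p = 0.862, adjusted 0.862). B2m over the sum of the 4 heavy chains was 0.524, 0.808 and 0.854 in sgControl and 0.273, 0.571 and 0.801 in sgKdm6a tumours (log2 difference -0.51, exact p = 0.0921, adjusted 0.230). Before adjustment the exact p was 0.0492 without sgControl replicate 4 and 0.0455 without sgKdm6a replicate 1. In sgKdm6a replicate 3 it was 0.766, near the top of its group, so that light and heavy chain levels were low together there.

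**Figure D5:**
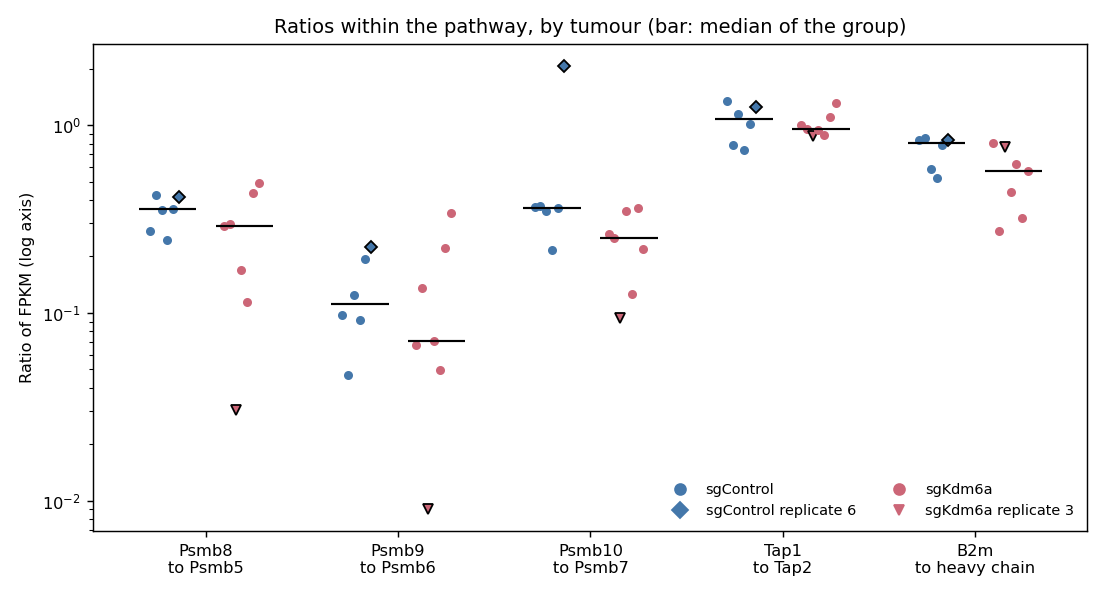
Ratio of FPKM (log axis) within the pathway in each tumour, with a bar at the group median. The 3 immunoproteasome ratios spread widely with sgKdm6a replicate 3 (triangle) lowest, Psmb10 to Psmb7 is highest in sgControl replicate 6 (diamond, 2.07), and Tap1 to Tap2 stays between 0.742 and 1.35.

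Other genes of the pathway are given by list, beside the 6.97% of all genes that were lower and the 3.18% that were higher at an unadjusted edgeR p under 0.05. Of 8 genes of peptide generation and trimming, 1 was lower at an unadjusted edgeR p under 0.05, Psmb10 (log2 fold change -1.19, SE 0.48), and the median was -0.038. Npepps, an aminopeptidase gene, had -0.25 (SE 0.15), Lap3, another, 0.30 (SE 0.25) and Erap1, which trims peptides in the endoplasmic reticulum, -0.36 (SE 0.40). Of 7 loading and chaperone genes 0 were lower, with a median of -0.28 and all 7 negative, among them the chaperones Calr at -0.42 (SE 0.25) and Hspa5 at -0.32 (SE 0.24), the disulfide isomerase Pdia3 at -0.28 (SE 0.26) and the protease Sppl2a at -0.30 (SE 0.20). Of 9 constitutive proteasome genes 0 were lower or higher, with a median of 0.15 and 1 negative.

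Among 15 regulators, 3 were lower at an unadjusted edgeR p under 0.05, where 6.97% of all genes were, and the median of the 15 was -0.33. The 3 were the interferon gamma receptor chain Ifngr2 (-1.39, SE 0.51), the interferon regulatory factor Irf1 (-0.68, SE 0.29) and the NF-kappaB subunit Nfkb1 (-0.66, SE 0.29). Rfxank, a subunit of the RFX factor that works with NLRC5, had -0.44 (SE 0.23). Of 16 other class I and class I-like genes 12 were tested, and 1 was lower, Hfe (-1.58, SE 0.70), which encodes a regulator of iron uptake. Mr1, which presents vitamin metabolites, had -0.97 (SE 0.54), Fcgrt, which encodes the neonatal Fc receptor, -0.75 (SE 0.74) and H2-M3, which presents formylated peptides, -0.40 (SE 0.46). None of these genes passed the edgeR adjustment over all genes, and without sgControl replicate 6 the lists had 0 members lower at an unadjusted p under 0.05, where 2.79% of all genes were lower.

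Of 7 marker lists of other cells, all but the B cell list had their highest sum in sgControl replicate 6, the tumour with the highest class I levels. Pan-leukocyte markers, 8 genes with Ptprc among them, summed to 136 to 353 CPM in sgControl replicates 1 to 5, 1874 CPM in sgControl replicate 6 and 153 to 235.7 CPM in sgKdm6a tumours, and 7 of 8 were lower at an unadjusted edgeR p under 0.05, where 6.97% of all genes were. Macrophage markers summed to 481 to 1577 CPM, 17022 CPM and 237 to 650 CPM in the same order, with 9 of 10 lower. T and NK cell markers were scarce, at 6.62 to 11.8 CPM, 40.5 CPM and 2.85 to 19.4 CPM over 13 genes, of which 4 were tested and 0 were lower. Fibroblast markers (5 of 7 lower) reached 6661 CPM, endothelial markers (5 of 7 lower) 1998 CPM and alveolar markers (8 of 8 lower) 10257 CPM in sgControl replicate 6. Without that tumour 0 of 8 pan-leukocyte, 1 of 10 macrophage, 1 of 7 fibroblast, 4 of 7 endothelial and 4 of 8 alveolar markers were lower, beside 2.79% of all genes in that fit. The B cell list summed to 10.8 CPM in that tumour, inside the 6.25 to 38.2 CPM of the remaining sgControl tumours. The part of these cells in the class I levels was not tested.

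In sgKdm6a replicate 3 the same lists gave another picture. Pan-leukocyte markers were at 153 CPM and macrophage markers at 363 CPM, the former at the lower end and the latter within the range of the sgKdm6a tumours, while endothelial markers (45.3 CPM) and alveolar markers (14.0 CPM) were at the lowest sum of the 13 tumours. The B cell list, of which 1 of 5 genes was lower at an unadjusted edgeR p under 0.05, summed to 304 CPM there, of which Pax5, a transcription factor gene, made up 302 CPM. The part of any of this in the low class I levels of that tumour was not tested.

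The genes whose pattern over the 13 tumours was most like the mean log2 CPM of the 10 were sought among 14025 genes with a mean of at least 1 CPM. They were the ubiquitin ligase gene Wwp2 (Spearman's rho 0.93), the lysosomal sulfatase gene Galns (0.93), the ESCRT gene Chmp1a (0.92), the kinase gene Map3k6 (0.92) and Psmb9 (0.92). All 5 were lowest in sgKdm6a replicate 3, and 4 were highest in sgControl replicate 6, Psmb9 being highest in sgKdm6a replicate 7. Without both of these tumours rho was 0.87 to 0.89. The 5 were picked by the same rho that is given, and Psmb9 overlaps Tap1 on the opposite strand. Genes of 1 tumour share its library and depth, and pairs of tumours may share an animal, so these values are descriptions.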

How the data were processed

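Gene expression was measured by RNA sequencing of 6 sgControl and 7 sgKdm6a tumours, grouped by the genotype label. Replicates were numbered in accession order, so that the numbers pair no tumours. Per the labels' protocols, libraries were non-stranded and read from both ends. STAR, DESeq2 and mm10 are named in the submitters' processing notes. Which program counted the reads, and with which annotation, is not given in the sources used here. The authors deposited raw counts per gene, with a total of 16835726 to 22910187 per tumour, and FPKM, which equal the deposited count divided by gene length and by 1 constant per tumour. Coordinates are those of the deposited table. Each of the 10 gene names belonged to 1 row.

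The main test was that of edgeR 4.0.16 in R 4.3.3, run on the counts (filterByExpr, TMM, robust quasi-likelihood F test, no covariate, Benjamini-Hochberg adjustment over all 16575 genes tested, threshold 0.05). An SE is the absolute log2 fold change over the root of its F statistic. TMM factors entered CPM, and 2 was the prior count for log2 CPM. A log2 ratio to Ptprc is the difference in log2 CPM. A single value per tumour was compared with a two-sided exact permutation test over 1716 splits, on the absolute difference in means, and correlations by permutation with 100000 resamples, for which 1e-05 is the smallest p. Scripts were tested on simulated data.

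The genes and lists were chosen with earlier results of these data known. Named genes are the 10, Ptprc, up to 4 genes of smallest edgeR p per pathway list, the genes of the ratios and the 5 most alike genes, by Spearman's rho with a mean of at least 1 CPM and leaving out Gm-number, Rik and LOC names. Pax5 and the neuroendocrine marker Chga were named after their values were seen, and the promoter motifs were also chosen then. Alternatives were DESeq2 1.42.0, RLE factors, no filter on low counts, limma-voom (limma 3.58.1) with a correlation by title number, counts summed or values averaged by title number, title series, Ptprc or Y-linked genes as a term, a prior count of 0.5, the mean of the pan-leukocyte list in place of Ptprc, log2(FPKM + 0.1), FPKM + 1 in the ratios, Spearman's rho, 13 tumours in place of 10 numbers, and leaving out each tumour. Leaving out sgControl replicate 6 and sgKdm6a replicate 3 together, and Ptprc as a term without the former, were added after the data were seen.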

Additional observations from a re-analysis of the deposited data

Results flagged for a closer look

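Tumours far from the rest of their group were sought in 52 groups of values, of which chance flags about 1 in 20, and 7 values stood apart. In sgControl replicate 6, H2-T23 was at 8.13 and Tapbp at 8.77 log2 CPM, each far above the other sgControl tumours. The log2 Psmb10 to Psmb7 ratio of the same tumour was 1.05, above the other 5. In sgKdm6a replicate 3, the log2 ratio to Ptprc was -2.76 for Tap1, -3.11 for Tap2, -3.76 for Nlrc5 and -1.99 for Psmb8, each far below the other sgKdm6a tumours. These 7 values come from 2 tumours and are not independent of each other.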

How the results depend on the processing

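Over the alternatives run, 58 of the 79 values that answer a comparison kept their direction and, where tested, their side of the threshold, and no class I gene passed an adjusted p in any of them; where values changed, the cause was not tested. DESeq2 called 68 genes against 0 by edgeR, 741 genes having no adjusted p. The number of class I genes lower at an unadjusted p under 0.05 was 1 in edgeR, beside 6.97% of all genes. It was 2 by DESeq2 (5.6% of all genes), with RLE factors (7.23%), without a filter on low counts (6.23%) and with the title series as a term (6.4%). It was 0 with counts summed by title number (3.36%), and with Ptprc (2.98%) or the Y-linked genes (2.52%) as a term. It was also 0 with Ptprc as a term without sgControl replicate 6 (3.45%), and without the highest and the lowest tumour together (3.33%). With 1 tumour left out it was 0 to 3, beside 2.79% to 7.89% of all genes. The log2 difference of Psmb10 to Psmb7 missed an exact p of 0.05 with the mean by title number (-1.19), in the higher series (-1.44) and without both extreme tumours (-0.40). With 1 tumour left out it ran from -1.25 to -0.60. In the lower series it was -0.49 at an exact p of 0.1. That is the smallest p its 10 splits allow, so 0.05 could not be reached there. The log2 difference of Psmb9 to Psmb6 was 0.21 in the lower series and 0.21 without both tumours. With 1 left out it was -0.85 to 0.020, positive without sgKdm6a replicate 3. Tap1 to Tap2 was 0.047 in the higher series and 0.063 without both tumours, and -0.12 to 0.053 with 1 left out. With 1 tumour left out, B2m to heavy chains ran from -0.62 to -0.37, past an exact p of 0.05 without sgControl replicate 4 or sgKdm6a replicate 1, and it was -0.67 in the lower series. The median log2 fold change of the 10 genes was 0.12 without both tumours. Their median difference relative to Ptprc was -0.29 by title number and -0.067 in the lower series, and -0.22 to 0.54 with 1 tumour left out. Single log2 fold changes turned positive without both tumours, at 0.053 for H2-K1, 0.18 for H2-D1, 0.12 for H2-Q4, 0.12 for H2-T23, 0.37 for Tap1, 0.24 for Tap2 and 0.22 for Psmb8. In the lower series they were 0.20 for Tap1, 0.33 for Tap2 and 0.086 for Psmb8, and for Tap1 0.049 with Ptprc as a term and 0.078 with that term and no sgControl replicate 6. With 1 tumour left out they ran from -0.61 to 0.16 for Tap1, -0.50 to 0.037 for Tap2 and -0.48 to 0.022 for Psmb8. Relative to Ptprc, the difference was 0.22 for H2-K1 and 0.052 for Nlrc5 without both tumours. By title number it was -0.30 for H2-D1, -0.13 for H2-T23, -0.33 for Tap1, -0.28 for Tap2, -0.18 for Tapbp and -0.23 for Psmb8. In the lower series it was -0.15 for H2-D1 and -0.25 for H2-Q4, and in the higher series -0.079 for Tapbp. With 1 tumour left out it ran from -0.67 to 0.32 for H2-K1, -0.25 to 0.55 for H2-D1, -0.20 to 0.53 for H2-T23, -0.18 to 0.82 for Tap1, -0.14 to 0.81 for Tap2, -0.34 to 0.34 for Tapbp, -0.60 to 0.28 for Nlrc5 and -0.080 to 0.80 for Psmb8. Spearman's rho with Ptprc was -0.091 for H2-K1, -0.055 for H2-D1, -0.16 for H2-T23, -0.12 for B2m, -0.12 for Tap1, -0.15 for Tap2, -0.22 for Tapbp and -0.042 for Psmb8. Pearson's r without both tumours was -0.45 for H2-K1, -0.39 for H2-D1, -0.028 for H2-Q4, -0.48 for H2-T23, -0.16 for B2m, -0.26 for Tap1, -0.56 for Tap2, -0.68 for Tapbp and -0.25 for Psmb8. With 1 tumour left out, r was lowest without sgControl replicate 6 for all 10 genes and ran from -0.38 to 0.47 for H2-K1, -0.38 to 0.50 for H2-D1, -0.12 to 0.43 for H2-Q4, -0.44 to 0.54 for H2-T23, -0.26 to 0.61 for B2m, -0.29 to 0.42 for Tap1, -0.38 to 0.29 for Tap2, -0.56 to 0.63 for Tapbp, -0.11 to 0.61 for Nlrc5 and -0.29 to 0.37 for Psmb8. The lowest class I count in a tumour was 38, above the limit of 3 counts. No paired analysis was possible because the replicate numbers are accession order.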
